A study of Rattus norvegicus with 20 samples.

Results

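The 7 genes described here encode subunits of the GABA-A receptor, and each is represented by 1 probe with 1 spot on the array. They were chosen by name (Gabra2, Gabra3, Gabra4, Gabra5, Gabrb1, Gabrb2 and Gabrg1), are 7 of the 25926 genes on the array, and all 7 passed the filter on dim probes that left 17086 genes. Messenger RNA was measured in the hypothalamic arcuate nucleus of 20 female Sprague-Dawley rats killed on postnatal day 15, 4 in each of 5 conditions of a model of infantile spasms, an epilepsy of infancy. The 3 letters of a condition give the prenatal exposure, the spasms and the postnatal treatment. SNS rats had mothers injected with saline, BNS rats had mothers injected with betamethasone, a synthetic glucocorticoid, and neither had spasms. BYS, BYA and BYP rats had prenatal betamethasone as well, and spasms were then triggered with N-methyl-D-aspartate (NMDA). They were treated with saline (BYS), with adrenocorticotropic hormone (ACTH, BYA) or with PMX53, an antagonist of the complement receptor C5ar1 (BYP). The mothers' injections fell on gestational day 15, with 0.4 mg/kg of betamethasone in each. All 5 conditions share the same tissue, sex and age, and the betamethasone conditions share the prenatal exposure, so BYS, which like BNS was given saline as treatment, differs from BNS by NMDA and spasms together, and BYA and BYP differ from it by these and by their treatment. No group had NMDA after prenatal saline. Litters had been reduced to 4 females, and which litter each animal came from is not given, so p-values measure the spread between animals that may be litter mates.

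GABA-A receptors are chloride channels built of 5 subunits around a central pore, most often of alpha, beta and gamma type, and they carry most fast inhibition in the brain. The alpha subunit sets much of the response to GABA and to benzodiazepines, the beta subunit helps to form the GABA binding site and carries phosphorylation sites for trafficking, and the gamma subunit helps to hold receptors at the synapse. In the arcuate nucleus, where the Agrp and Npy neurons are GABAergic and the Pomc neurons receive their input, these receptors mediate local inhibition of neurons that control feeding and hormone release.

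The probes are shown because every value below rests on 1 of them for each gene, and because 2 pairs resemble each other. They are written 5′ to 3′. Among the 21 pairs compared without gaps, the Gabra2 and Gabra3 probes were identical at 33 of 54 overlapping bases and the Gabrb2 and Gabrg1 probes at 31 of 50, while no other pair shared more than 23. Capitals mark the bases that are identical within these 2 pairs. For Gabrb1 the first 30 of 60 bases are given.
Gabra2: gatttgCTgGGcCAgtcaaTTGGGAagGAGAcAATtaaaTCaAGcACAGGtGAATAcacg
Gabra3: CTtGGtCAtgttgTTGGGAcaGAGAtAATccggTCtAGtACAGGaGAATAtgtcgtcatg
Gabra4: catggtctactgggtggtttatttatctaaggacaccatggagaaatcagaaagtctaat
Gabra5: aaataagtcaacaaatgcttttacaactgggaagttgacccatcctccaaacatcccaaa
Gabrb1: caaggtaccagctctgtaagagttccatca
Gabrb2: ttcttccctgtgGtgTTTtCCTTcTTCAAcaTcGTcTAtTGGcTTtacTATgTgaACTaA
Gabrg1: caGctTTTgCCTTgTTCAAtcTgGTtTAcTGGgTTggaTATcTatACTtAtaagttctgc

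On the build that the file headers name (rn4), 4 of the probes lie on chromosome 14. These are Gabrb1 at chr14:38530433-38530492 on the minus strand, and Gabra4 at chr14:39122375-39122434, Gabra2 at chr14:39661796-39662852 and Gabrg1 at chr14:39951099-39951158 on the plus strand. In the RefSeq gene list (assembly GRCr8) these 4 genes also follow each other in this order on chromosome 14, with 1 other protein-coding gene, between Gabra4 and Gabra2. The Gabrb2 probe lies at chr10:27819086-27819145 on the plus strand. The Gabra5 probe lies at chr1:108844189-108844248 on the minus strand. The Gabra3 probe lies at chrX:158416663-158422492 on the minus strand. The Gabra2 and Gabra3 probes span 1057 and 5830 bases of the genome, so each crosses an intron, and the other 5 lie in a single stretch of 60 bases.

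Levels are normalized log2 spot intensities, so a difference of 1 is 2-fold, and levels of different probes are not comparable. Differences were tested with limma (a single model over the 20 channels, with a term for dye), and p-values were adjusted over all genes (Benjamini-Hochberg). Each condition lies on a slide of its own, except that BYA lies on 2, so slide and condition cannot be told apart. The median ratio of signal to background over spots ranged from 5.66 to 11.3 in SNS samples, from 14 to 19.8 in BNS, from 13.9 to 19.9 in BYS, from 6.6 to 10.4 in BYA and from 7.02 to 10.9 in BYP. Each channel is 1 animal. Replicates 1 and 2 of a condition lie on 1 array and replicates 3 and 4 on another, apart from BYA replicates 3 and 4, which lie on an array each, and for BYA replicate 3 the labels disagree on which dye it carries, so which animal that channel holds is uncertain. All 12 markers of arcuate neurons passed the filter, and of the 7 pituitary markers 2 passed, with Prl in no sample well above background. In bulk tissue, fewer cells of a type and less RNA per cell cannot be told apart.

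Gabrb1, which encodes the beta1 subunit found in neurons and in some glia, was the member that differed most between conditions. Its level was 11.1 in both SNS replicates 1 and 2, whereas the spots of SNS replicates 3 and 4, on the other SNS array, were marked by the scanner software as non-uniform and were left out. The 4 BNS levels were 12.5, 13, 12.6 and 13.2, and the 4 BYS levels 13, 12.9, 13.2 and 13.1. The 4 BYA levels were 12.4, 13.4, 12.9 and 13.4, and the 4 BYP levels 13.2, 13.2, 12.8 and 13.2. Both measured SNS samples thus lay below all 16 samples of the rats exposed to betamethasone, which overlapped among themselves. Gabrb1 was higher than in SNS by 1.70 in BNS (SE 0.19, 3.26-fold, adjusted p = 1.1e-05), by 1.93 in BYS (SE 0.19, 3.8-fold, adjusted p = 4e-06), by 1.88 in BYA (SE 0.19, 3.67-fold, adjusted p = 4.1e-06) and by 1.97 in BYP (SE 0.19, 3.92-fold, adjusted p = 3.1e-06).

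The size of this difference rests on 1 SNS array. With outlier spots kept, an alternative chosen after seeing the data, SNS replicates 3 and 4 stood at 12.2 and 12, above SNS replicates 1 and 2 and still below each of the other 16 samples. The SNS mean was then 11.6 ± 0.55 (SD, n = 4), and the differences were 1.23 in BNS (adjusted p = 0.00068), 1.45 in BYS (adjusted p = 0.00015), 1.40 in BYA (adjusted p = 0.00019) and 1.5 in BYP (adjusted p = 0.00012). With SNS replicates 1 and 2 left out as well, they were 0.75 (adjusted p = 0.013), 0.97 (adjusted p = 0.00255), 0.93 (adjusted p = 0.0033) and 1.02 (adjusted p = 0.00174). Over all genes, all 4 SNS levels lay below the other 16 in 7.61% with outlier spots kept. With Cy3 samples alone the difference was 1.42 to 1.92 and with Cy5 samples alone 1.93 to 2.26. Each of these fits held 1 SNS sample for Gabrb1, replicate 1 or replicate 2, and both come from the same array.

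The call of Gabrb1 has to be read against the background of the SNS comparisons. Against SNS, limma called 28.6% of all genes in BNS, 27.1% in BYS, 31.3% in BYA and 28.9% in BYP, and any difference among the 5 conditions in 30.3%. Of the 7 members, 1 was called in BNS, 1 in BYS, 1 in BYA and 2 in BYP, and 1 by the test of any difference (Gabrb1, adjusted p = 5.8e-06). The members' share was thus no higher than that of all genes. The median difference over the 7 members was -0.07 in BNS, 0.11 in BYS, -0.04 in BYA and 0.003 in BYP, and over all genes it was between -0.04 and -0.03.

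**Figure D1:**
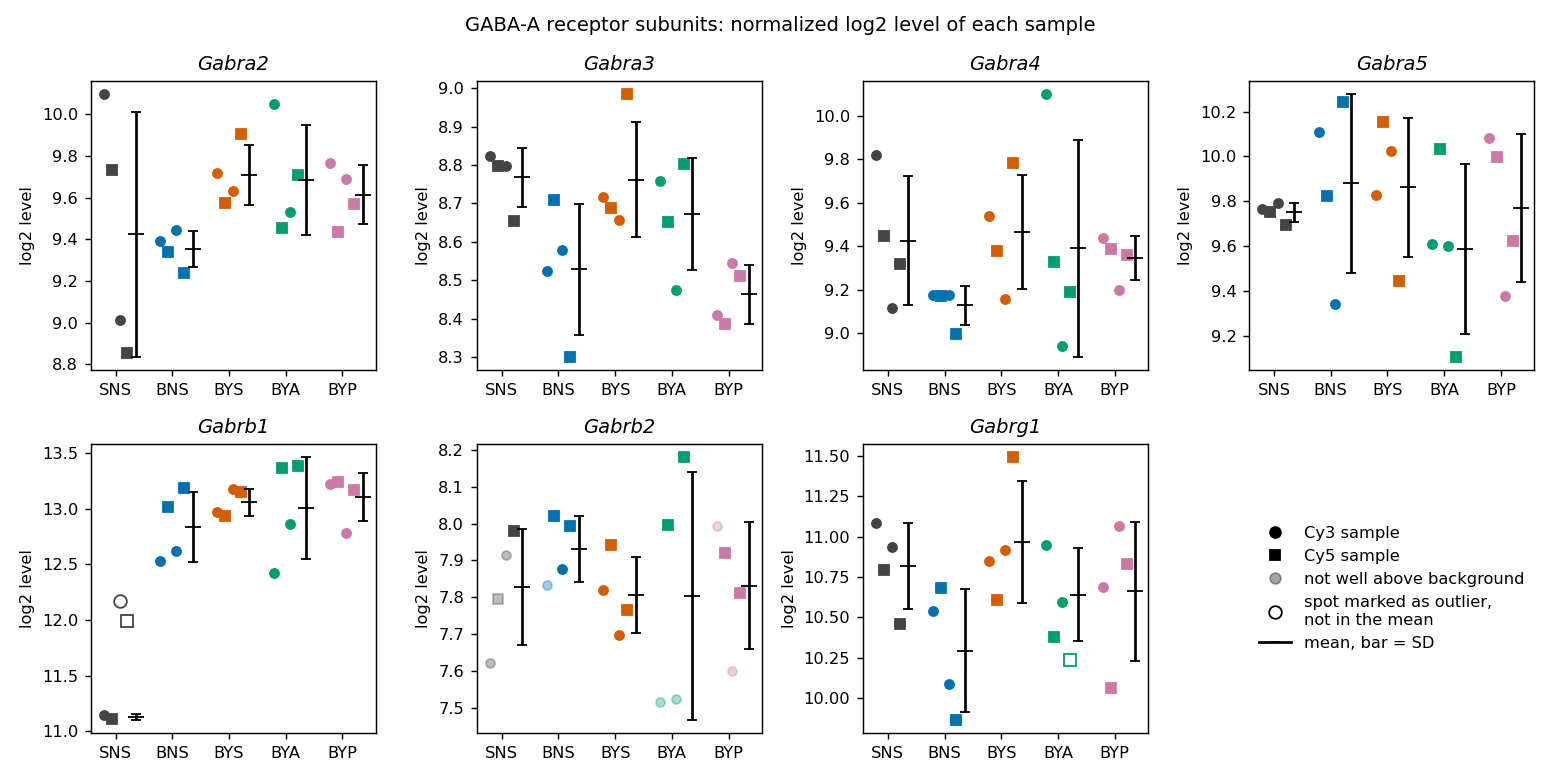
Normalized log2 level of the 7 subunits in each of the 20 samples, 1 panel per gene with its own axis, with the mean and SD of each condition; open symbols are spots marked as outliers, which are not in the means. Gabrb1 was 11.1 in the 2 SNS samples measured and 12.4 or higher in the 16 others, and the conditions overlapped for the other genes except for a few pairs such as BYP and SNS for Gabra3.

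Gabra3, which encodes the alpha3 subunit, found on many monoaminergic neurons, was the other member called. Its levels were 8.82, 8.8, 8.8 and 8.65 in SNS, 8.52, 8.71, 8.58 and 8.3 in BNS, and 8.72, 8.69, 8.66 and 8.98 in BYS. In BYA they were 8.76, 8.65, 8.47 and 8.8, and in BYP 8.41, 8.39, 8.54 and 8.51. All 4 BYP levels lay below all SNS and all BYS levels, while BNS and BYA overlapped with every other condition. Groups did not overlap in 26.6% of all genes between BYP and SNS. Gabra3 was lower in BYP than in SNS by 0.30 (log2 difference -0.30, SE 0.10, adjusted p = 0.035), the smaller in size of the members' 2 calls in that comparison. This call was lost in 14 of 26 alternatives (13 with the same sign), among them array as a random block (adjusted p = 0.12) and the leaving out of any of SNS replicates 1, 2 and 3 (adjusted p = 0.069 to 0.079) or BYP replicates 1, 2 and 4 (adjusted p = 0.052 to 0.086). With each channel scaled to the same 75th percentile the sign turned, to 0.31 (adjusted p = 0.43), where the median of all genes stood at 0.32.

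Between BYP and BYS the Gabra3 difference was -0.30 as well (95% interval -0.52 to -0.08, unadjusted p = 0.0097), but it failed the correction (adjusted p = 0.42). Groups did not overlap for Gabra3 in this comparison, against 4.71% of all genes. The order of the Gabra3 means was SNS at 8.77, BYS at 8.76, BYA at 8.67, BNS at 8.53 and BYP at 8.46, and no neighbours in that order differed beyond their spread. BNS was lower than SNS by 0.24 (log2 difference -0.24, adjusted p = 0.089) and BYS exceeded BNS by 0.23 (adjusted p = 0.67), neither of which passed.

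Gabrg1 encodes the gamma1 subunit, which is restricted to few brain regions and is also found in glia. Its levels were 11.1, 10.8, 10.9 and 10.5 in SNS, 10.5, 10.7, 10.1 and 9.87 in BNS, and 10.8, 10.6, 10.9 and 11.5 in BYS. The 3 BYA samples measured stood at 10.9, 10.4 and 10.6, since the spot of BYA replicate 4 was marked as an outlier, and the BYP samples at 10.7, 10.1, 11.1 and 10.8. BNS had the lowest mean, 10.3 ± 0.38 (SD, n = 4), against 10.8 ± 0.27 in SNS and 11 ± 0.38 in BYS, but it overlapped with each of the other conditions. BYS minus BNS was 0.67 (95% interval 0.2 to 1.15, unadjusted p = 0.0082, adjusted p = 0.55) and BNS minus SNS was -0.53 (unadjusted p = 0.032, adjusted p = 0.089), so neither passed. Without BNS replicate 2 the second was -0.70 (adjusted p = 0.036). All 7 microglia markers passed the filter, none was dim in all samples of a condition, and their summed level ranged from 20234 to 24412 in BNS, from 25170 to 35084 in BYS, from 25355 to 29973 in SNS, from 23374 to 35673 in BYA and from 27640 to 36748 in BYP. The median log2 difference over these 7 markers was -0.15 in BYS minus BNS, with 0 called, and -0.12 in BNS minus SNS, with 1 called lower, so for BYS against BNS the median and the sum differ in direction. For the 7 astrocyte markers the median was 0.35 in BYS minus BNS, with 0 called, and -0.16 in BNS minus SNS, with 1 called higher and 1 lower, and their summed level ranged from 22191 to 25081 in BNS, from 22741 to 30799 in BYS and from 21529 to 25396 in SNS. The part of these lists in the Gabrg1 values was not tested.

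Gabra2 and Gabra4 encode alpha subunits and lie close together on chromosome 14. Alpha2 is typical of young forebrain and of synapses on the axon initial segment, and alpha4 joins the delta subunit in receptors outside the synapse. Gabra2 levels were 10.1, 9.73, 9.01 and 8.85 in SNS, 9.39, 9.34, 9.44 and 9.24 in BNS, and 9.72, 9.57, 9.63 and 9.9 in BYS. In BYA they were 10, 9.45, 9.53 and 9.71, and in BYP 9.76, 9.44, 9.69 and 9.57. The 2 SNS arrays stood apart, with replicates 1 and 2 above and replicates 3 and 4 below every BNS level. Gabra2 was not called in any comparison. The sign of its difference to SNS depended on the SNS array, since BNS minus SNS was 0.42 (adjusted p = 0.04) without SNS replicates 1 and 2 and -0.56 (adjusted p = 0.0086) without SNS replicates 3 and 4, both with outlier spots kept, against -0.07 with all 4 (adjusted p = 0.81).

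Among the rats exposed to betamethasone, Gabra2 in all 4 BYS samples lay above all 4 BNS samples. The difference was 0.35 (SE 0.20, adjusted p = 0.80). BYA also lay above BNS throughout, by 0.33 (SE 0.20, adjusted p = 0.49), while BYP was 0.26 above BNS (adjusted p = 0.52) and overlapped. Groups did not overlap in either direction for 6.43% of all genes between BYS and BNS and for 8.65% between BYA and BNS, so 1 member of 7 is close to the background.

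Gabra4 levels were 9.82, 9.45, 9.12 and 9.32 in SNS, 9.17, 9.17, 9.18 and 8.99 in BNS, and 9.54, 9.38, 9.16 and 9.78 in BYS. In BYA they were 10.1, 9.33, 8.94 and 9.19, and in BYP 9.44, 9.39, 9.2 and 9.36. BNS held the lowest mean, 9.13 ± 0.09 (SD, n = 4), and all BYP samples were above all BNS samples, by 0.22 on average (95% interval -0.2 to 0.63, adjusted p = 0.61), against 13.2% of all genes with groups apart. No comparison of Gabra4 was called, and in the order of the means (BYS, SNS, BYA, BYP, BNS) BYP and BNS were the only neighbours that did not overlap.

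Gabra5, which encodes the alpha5 subunit of receptors that carry tonic inhibition, had levels of 9.77, 9.75, 9.79 and 9.69 in SNS, 10.1, 9.82, 9.34 and 10.2 in BNS, and 9.83, 10.2, 10 and 9.44 in BYS. In BYA they were 9.61, 10, 9.6 and 9.1, and in BYP 10.1, 10, 9.38 and 9.62. The SD was 0.04 in SNS and between 0.31 and 0.40 in the 4 betamethasone conditions, but the difference in spread was not tested. Means were 9.88 in BNS, 9.86 in BYS, 9.77 in BYP, 9.75 in SNS and 9.59 in BYA, with every pair of conditions overlapping. The largest difference was BYA minus BNS, -0.29 (95% interval -0.74 to 0.16, adjusted p = 0.58).

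Gabrb2, which encodes the beta2 subunit that joins alpha1 in the most abundant adult receptor, was close to background. Its spot was well above background in 12 of 20 samples, 1 in SNS, 3 in BNS, 4 in BYS, 2 in BYA and 2 in BYP, so that it passed the filter through BYS. Levels ranged from 7.62 to 7.98 in SNS, from 7.83 to 8.02 in BNS, from 7.7 to 7.94 in BYS, from 7.52 to 8.18 in BYA and from 7.6 to 7.99 in BYP. All 5 conditions overlapped. The largest difference was BYA minus BNS, -0.13 (95% interval -0.37 to 0.12, adjusted p = 0.67). The offset of 50 added at background correction shrinks differences of a spot this dim.

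**Figure D2:**
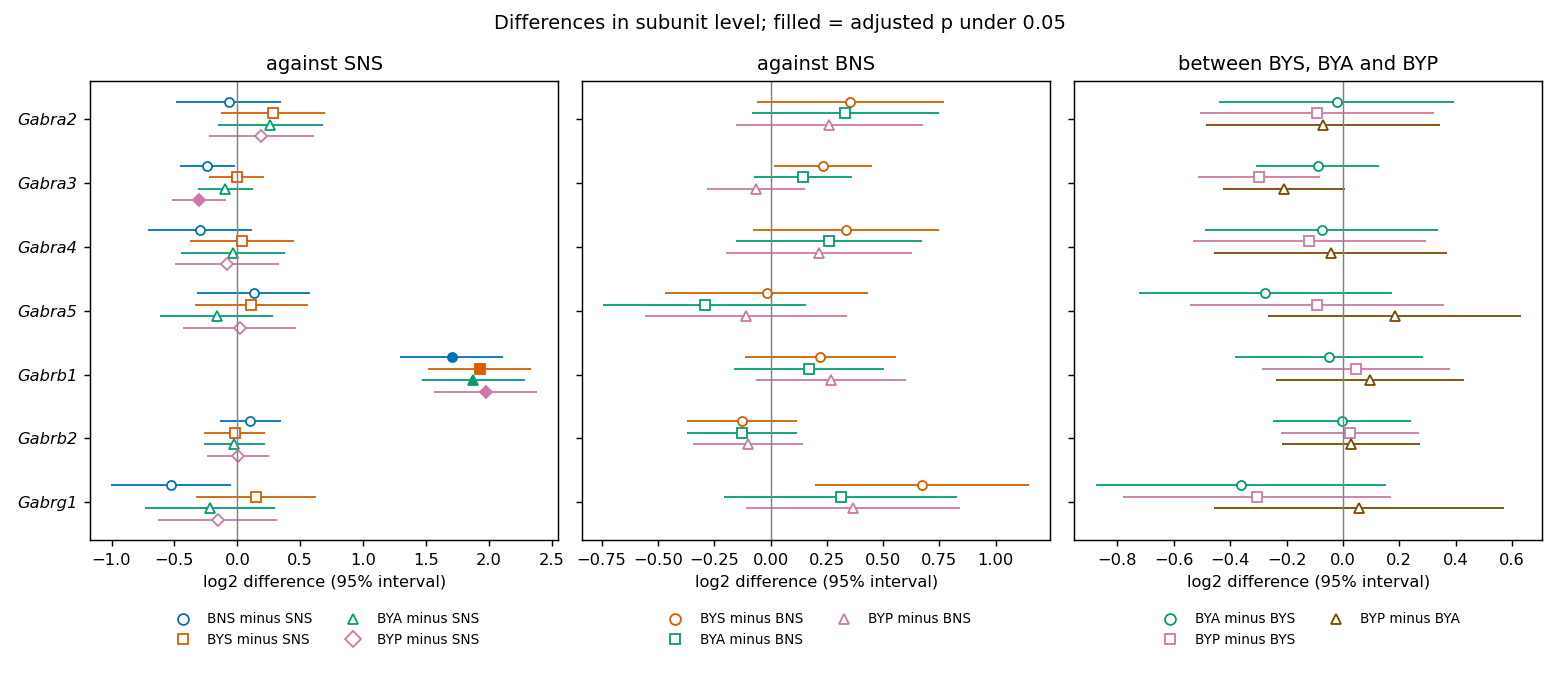
Log2 difference of each subunit with its 95% interval from limma, in 3 panels (against SNS, against BNS, and between the spasm conditions) with separate axes; filled symbols passed an adjusted p of 0.05. Gabrb1 lay between 1.70 and 1.97 above SNS, Gabra3 was -0.30 in BYP against SNS, and no symbol is filled in the other 2 panels.

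Among the rats exposed to betamethasone, no member was called in any of the 6 comparisons. Those with BNS concern NMDA and spasms together, with or without treatment, and those among BYS, BYA and BYP concern the treatments, and slide goes with condition in both. Limma called 0.0293% of all genes between BYS and BNS, 0.117% between BYA and BNS and 1.5% between BYP and BNS. Between BYA and BYS it called 0%, between BYP and BYS 0.0351% and between BYP and BYA 0.158%. At an unadjusted p under 0.05, 2 members passed between BYS and BNS (Gabra3 and Gabrg1), against 6.92% of all genes, 1 between BYP and BYS (Gabra3), against 8.5%, and 0 in the other 4 comparisons, against 13.1% of all genes between BYA and BNS, 17.8% between BYP and BNS, 8.07% between BYA and BYS and 13.6% between BYP and BYA. The unequal-variance test that the methods name, at an unadjusted p under 0.05 and without their further cut-off on the size of the change, passed 2 members between BYS and BNS, 2 between BYP and BNS, 1 between BYP and BYS and 0 in the other 3. The share of all genes that passed it is not given here, and the shares above belong to limma, so these counts cannot be set against a background. After Benjamini-Hochberg adjustment the unequal-variance test passed 0 in all 6.

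Compared with BNS, 5 of 7 members were higher in BYS, and the median difference was 0.23 (range -0.13 to 0.67). It was 0.17 in BYA and 0.22 in BYP, and over all genes it was 0.001, -0.003 and 0.004. These 3 comparisons share the BNS samples. Compared with BYS, the median of the members was -0.08 in BYA and -0.09 in BYP. All 7 differences between BYA and BYS were negative, from -0.36 for Gabrg1 to -0.002 for Gabrb2, and none passed. Over all genes the median of this comparison was -0.003. The sign turned in 10 of 23 alternatives for Gabrb2 and 6 of 24 for Gabra2. It turned in 4 of 24 for Gabra4, 3 of 24 for Gabrb1 and 1 of 24 for Gabra3, and in none for Gabra5 and Gabrg1. The 95% intervals are the limit of what 4 against 4 can show: for Gabrb1 between BYS and BNS the interval ran from -0.11 to 0.55, for Gabra5 from -0.47 to 0.43 and for Gabrb2 from -0.37 to 0.12.

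The balance of subunits was taken within each sample, as the difference of 2 log2 levels after the dye effect was removed, and only its change between conditions was read. The 5 balances were compared over 10 pairs of conditions by an exact two-sided permutation test with 50 p-values adjusted together, in which 4 samples against 4 cannot go below 0.0286. No balance passed, and the lowest adjusted p of the permutation tests was 0.37.

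Of the 8 balance comparisons without overlap, 2 were of the alpha subunits with the most similar probes. Gabra3 minus Gabra2 was -1.27, -1.14, -1.06 and -1.14 in BYP, against -0.92, -0.97, -0.89 and -1 in BYS and -0.78, -0.72, -0.78 and -1.03 in BNS. The BYP samples lay below all BYS and all BNS samples. The change was -0.21 from BYS (exact permutation p = 0.0286) and -0.33 from BNS (exact permutation p = 0.0286), each with an adjusted p = 0.37. In BYA it was -1.2, -0.89, -0.97 and -0.99, and BYP minus BYA was -0.14 (exact permutation p = 0.14). In SNS it was -1.19 and -1.02 on 1 array and -0.13 and -0.29 on the other, so SNS overlapped with every other condition.

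Gabrb2 minus Gabrb1 was -3.58 and -3.26 in the 2 SNS samples measured, above all 16 others, as the Gabrb1 levels set. With 2 samples against 4 the permutation test cannot go below 0.0667. Among the others it was -4.75, -4.94, -4.8 and -5.13 in BNS and -5.28, -5.26, -5.24 and -5.3 in BYP, a change of -0.37 with no overlap (exact permutation p = 0.0286, adjusted p = 0.37). BYS minus BNS was -0.35 and BYA minus BNS -0.30 (both exact permutation p = 0.0571), with overlap. The Gabrb2 spot was well above background in 3 of 4 BNS and 2 of 4 BYP samples and in neither of the 2 SNS samples used, so these balances rest in part on a dim spot. With each channel scaled to its median or its 75th percentile, BYP and BNS overlapped in both this balance and Gabra3 minus Gabra2.

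Gabrg1 minus Gabra2 did not overlap between BYA (0.87, 0.95 and 1.04 in 3 samples) and BYS (1.1, 1.06, 1.25 and 1.62) by a narrow gap, with an exact permutation p = 0.11. Gabra5 minus Gabra2 and Gabra4 minus Gabra2 overlapped in all 10 pairs of conditions. Gabra5 minus Gabra2 had the widest change without a gap, BYA minus BNS, of -0.62 (exact permutation p = 0.14).

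**Figure D3:**
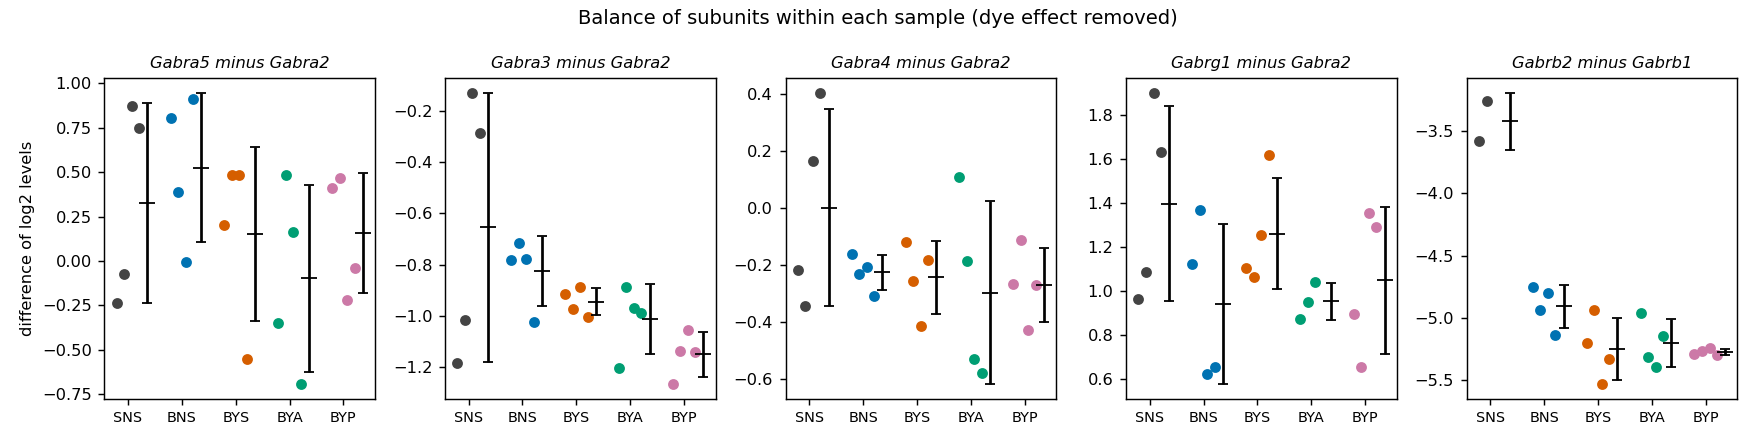
Difference of the log2 levels of 2 subunits within each sample, 1 panel per pair with its own axis, with the mean and SD of each condition, after the dye effect was removed. The 4 BYP points of Gabra3 minus Gabra2 lie at -1.06 or lower, below those of BYS and BNS, and the 2 SNS points of Gabrb2 minus Gabrb1 at -3.26 and -3.58 lie above all others.

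Across samples some members moved together. Over 20 samples (19 with Gabrg1), dye-corrected levels of Gabra2 and Gabra4 correlated at r = 0.69, Gabra3 and Gabrg1 at r = 0.76, and Gabra3 and Gabra5 at r = -0.44. After the condition means were removed these were 0.70, 0.81 and -0.63. Pairs of one condition on the same array differed on average by 0.16 in Gabra2 and 0.26 in Gabrg1, against 0.32 and 0.45 for pairs on different arrays. For Gabrb2 these averages were 0.12 and 0.20, for Gabra3 0.14 and 0.15, for Gabra4 0.28 and 0.32, and for Gabra5 0.33 and 0.38. Gabrb1 went the other way, with 0.31 on the same array and 0.25 on different arrays. Samples on 1 array share their hybridization, and the points also share the signal-to-background ratio of their slide. The genes most alike in pattern, by Pearson's r of dye-corrected levels over the samples, were Lmbrd2 (r = 0.92) and Nefh (r = 0.92) for Gabra2, Med19 (r = 0.82) and Rbm22 (r = 0.81) for Gabra3, and Ugt8 (r = 0.87) for Gabra4, whose next probe has no gene name. For Gabra5 they were Zfp2 (r = 0.88) and Psip1 (r = 0.86), and for Gabrg1 Eif3b (r = 0.85) and Mob1a (r = 0.81). For Gabrb1 they were Rab3gap2 (r = 0.96) and Ufd1 (r = 0.96) over 18 samples, and for Gabrb2 Ap4m1 (r = 0.89), whose next probe has no symbol in the reference.

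Of the 12 other GABA-A subunit genes on the array, 6 passed the filter, and Gabra6, Gabre, Gabrp, Gabrr1, Gabrr2 and Gabrr3 did not. Against SNS, 0 were called higher and 1 lower in BNS, 0 and 0 in BYS, 0 and 1 in BYA, and 1 and 1 in BYP. Over all genes, limma called 28.6% in BNS, 27.1% in BYS, 31.3% in BYA and 28.9% in BYP, so these counts are close to or under the background. Gabrq, the theta subunit of hypothalamic receptors, fell from 11.9 in SNS to 11.2 in BNS (log2 difference -0.70, adjusted p = 0.0071) and to 11.3 in BYA (-0.55, adjusted p = 0.024). Its levels were 11 to 11.4 in BNS and 11.8 to 12.1 in SNS. The BYA call was lost with median scaling (-0.61, adjusted p = 0.097). It was also lost without SNS replicates 1 and 2, with outlier spots kept (-0.60, adjusted p = 0.057). With 75th percentile scaling it held (adjusted p = 0.047), and the BNS call held in each of these settings.

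Gabrg3 encodes another gamma subunit. Gabrg3 stood between 7.77 and 8.27 in BYP and between 7.41 and 7.58 in SNS, a difference of 0.53 (adjusted p = 0.0034). Gabrg1 was at -0.16 in the same comparison (adjusted p = 0.62). The size depended on the scaling: the Gabrg3 difference was 1.00 with median scaling (adjusted p = 0.03) and 1.42 with 75th percentile scaling, which was not called (adjusted p = 0.058). The Gabrg3 signal was low. Its SNS levels lay below those of Gabrb2, 7.62 to 7.98, whose spot was well above background in 1 SNS sample. In how many samples Gabrg3 was well above background is not given, so its difference may rest on dim spots. Among the betamethasone conditions none of the 6 was called, against 0% to 1.5% of all genes.

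Of the genes that hold and move GABA-A receptors, 20 of 20 passed the filter. Against SNS, 2 were called higher and 3 lower in BNS, 3 and 1 in BYS, 3 and 2 in BYA, and 2 and 1 in BYP. The shares of all genes called were 28.6%, 27.1%, 31.3% and 28.9%, so the share of this list was no higher. Gabarapl2, a relative of the GABA-A receptor binding protein Gabarap, was lower in all 4, by 0.37 to 0.68 (log2 differences -0.37 in BNS, -0.68 in BYS, -0.55 in BYA and -0.51 in BYP, with adjusted p between 0.017 and 0.00022). Without SNS replicates 1 and 2, and with outlier spots kept, it was -0.40 in BYS, still called (adjusted p = 0.046), and the calls in BNS (-0.31, adjusted p = 0.11), BYA (-0.36, adjusted p = 0.067) and BYP (-0.34, adjusted p = 0.088) were lost. With median scaling those in BYS (adjusted p = 0.13) and BYA (adjusted p = 0.16) were lost. Iqsec3, a gephyrin partner of inhibitory synapses, was higher by 0.77 in BNS, 0.79 in BYS, 1.01 in BYA and 0.87 in BYP (adjusted p between 0.0051 and 0.026). Its SNS levels were 11.9 and 11.8 in replicates 1 and 2 and 13.3 and 13.2 in replicates 3 and 4, and without the first 2 (outlier spots kept) it was 0.08 higher in BNS (adjusted p = 0.61), 0.10 in BYS (adjusted p = 0.53) and 0.18 in BYP (adjusted p = 0.22), none of them called, and 0.32 in BYA, which was still called (adjusted p = 0.034). Rdx, which anchors alpha5 receptors outside synapses, was higher by 0.48 to 0.60, and Nlgn2, Ubqln1, Trak2, Hap1 and Insyn2a were called in 1 comparison each. No gene of this list was called among the betamethasone conditions, against 0% to 1.5% of all genes. There, Gabarapl2 gave the largest difference between BYS and BNS (-0.30, adjusted p = 0.57).

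Of the 14 genes for GABA synthesis, transport and chloride, 13 passed. None was lower than in SNS in any condition, and 1 was higher in BNS, 2 in BYS, 2 in BYA and 4 in BYP. Gad2, which makes GABA at terminals, was higher by 0.69 in BYS (adjusted p = 0.033), 0.79 in BYA (adjusted p = 0.015) and 0.67 in BYP (adjusted p = 0.037). Each Gad2 call was lost with median scaling (adjusted p = 0.088 in BYS, 0.097 in BYA and 0.46 in BYP). With 75th percentile scaling those in BYS (adjusted p = 0.076) and BYP (adjusted p = 0.061) were lost. Without SNS replicates 1 and 2, and with outlier spots kept, each was still called. In BYP, Aldh5a1, of GABA breakdown, was higher by 0.68 (adjusted p = 0.048) and Slc12a2, the chloride importer NKCC1, by 0.31 (adjusted p = 0.027). Both calls were lost with median scaling (adjusted p = 0.23 and 0.51) and without SNS replicates 1 and 2 (adjusted p = 0.26 and 0.17), and both held with 75th percentile scaling. Among the betamethasone conditions none was called, against 0% to 1.5% of all genes.

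All 5 GABA-B receptor genes passed the filter, and 1 was called in 1 comparison, Kctd16, an auxiliary subunit, which was higher in BYA than in SNS by 0.69 (adjusted p = 0.049). In that comparison 31.3% of all genes were called. All 10 genes for kinases, phosphatases and neurosteroid synthesis passed. Of these, 2 were called higher and 1 lower in BNS than in SNS, 2 and 0 in BYS, 1 and 0 in BYA, and 2 and 0 in BYP. The shares of all genes called were 28.6%, 27.1%, 31.3% and 28.9%, so these counts are close to or under the background. Prkaca, the catalytic subunit of the protein kinase A that phosphorylates beta subunits, was higher by 0.70 in BNS, 0.69 in BYS, 0.79 in BYA and 0.76 in BYP (adjusted p between 2.2e-05 and 9.6e-05). Srd5a1, an enzyme of neurosteroid synthesis, was higher by 0.30 in BNS, 0.32 in BYS and 0.38 in BYP (adjusted p = 0.04, 0.033 and 0.013). Its calls in BNS and BYS were lost with median scaling (adjusted p = 0.072 and 0.45) and with 75th percentile scaling (adjusted p = 0.11 and 0.78). The BYP call held with both scalings, and each call held without SNS replicates 1 and 2 (outlier spots kept). No gene of these 2 lists was called among the betamethasone conditions, against 0% to 1.5% of all genes. Over the 5 lists, all 39 calls against SNS kept their sign with either other scaling or without SNS replicates 1 and 2, and 24 were still called with 75th percentile scaling, 17 with median scaling and 25 without those 2 samples, settings that were chosen for these lists after seeing the data.

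**Figure D4:**
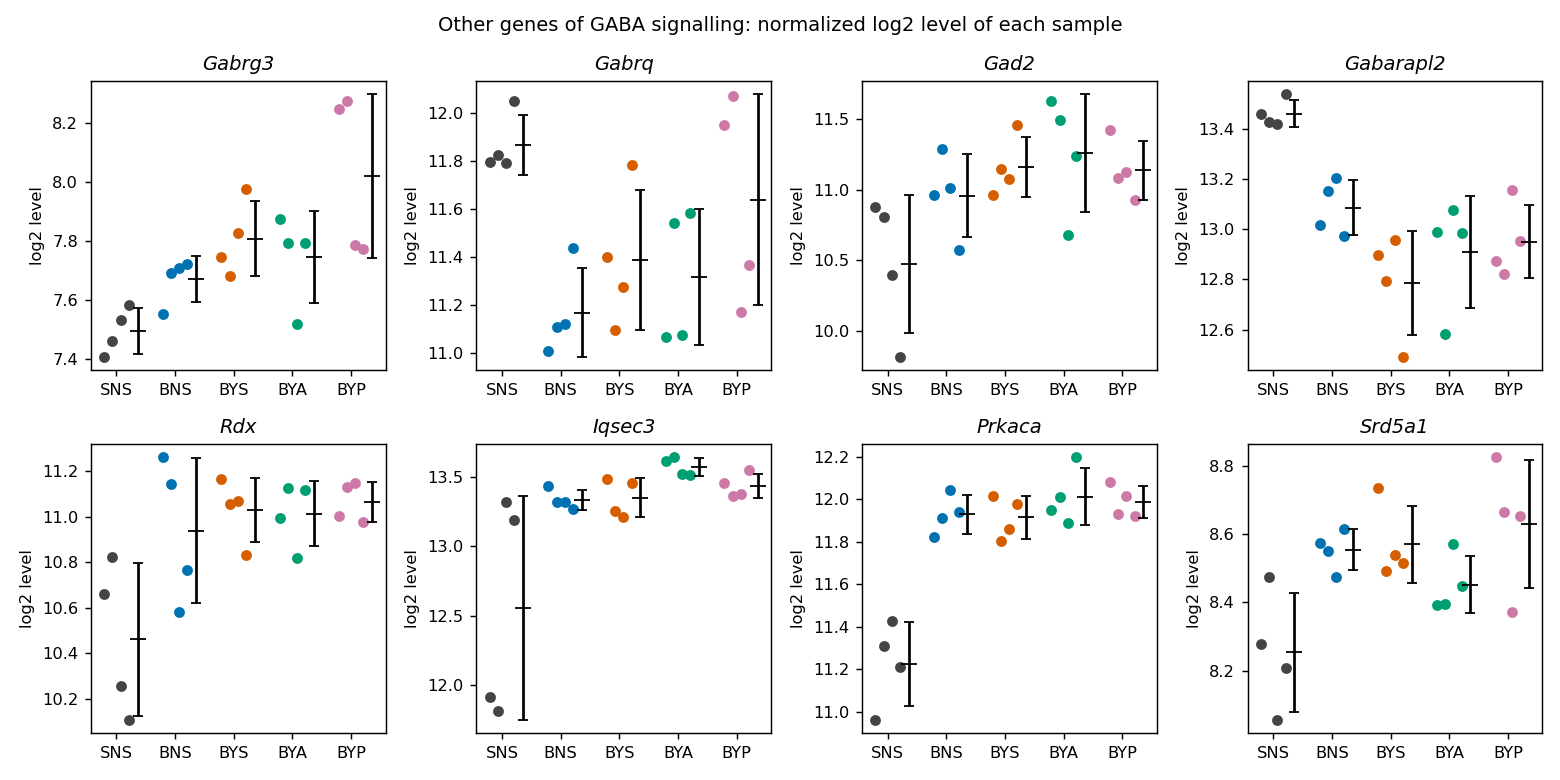
Normalized log2 levels of 8 genes of GABA signalling called against SNS, 1 panel per gene with its own axis and 1 point per sample, with the mean and SD of each condition. Prkaca was lower in all 4 SNS samples than in the 16 others, as were 7.61% of all genes with outlier spots kept. Iqsec3 was low in SNS replicates 1 and 2, the array that was also low for Gabrb1.

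Marker lists of other cells did not all stay level between SNS and the rest. Of 5 choroid plexus markers 3 passed the filter, and their summed level ranged from 3957 to 7603 in SNS and from 2174 to 4080 in the others, with Slc4a5 in no SNS, BYA or BYP sample above background. The summed level of the 7 astrocyte markers ranged from 21529 to 25396 in SNS and from 20459 to 30799 in the others, and that of 8 neuronal markers from 88159 to 123748 in SNS and from 95206 to 144180 in the others. The part of these lists in the differences to SNS was not tested.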

How the data were processed

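The authors deposited 1 table per two-colour rat array (11 arrays, 6 slides). Per the file headers, mean spot signals and local backgrounds are intensities before subtraction, processed signals are intensities that the software had background-subtracted and dye-normalized, and the flags for outlier and background are 0 or 1. The labels name Agilent Feature Extraction 10.7.3.1. On 9 arrays both channels hold animals of the series, and 82 columns belong to another series and were not used. Each channel was treated as a sample. Signals were corrected with normexp (offset 50), quantile normalized over 20 channels and taken to log2, and outlier spots (1.18%) were left out. Dim probes were dropped, and a probe stayed if some condition had it well above background (in a share of spots of 0.5 or more) in each of its 4 animals, and probes of a gene were averaged. R 4.3.3 and limma 3.58.1 were used, and the fit was tested on simulated data. The members, lists and tests were chosen with earlier results of these data known. Named genes are the members, called genes of 5 lists (up to 3 with the largest changes in each comparison, otherwise the largest change) and the 2 genes most alike to each member, and some called list genes are counted but not reported here by name. Animals are separate samples, but those on 1 array are not independent hybridizations. Precision is limited by how many arrays there are. Of the probes, 61.4% matched a RefSeq symbol, and others kept the name in the files.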

Additional observations from a re-analysis of the deposited data

Results flagged for a closer look

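In 3 of 56 groups of 4 samples (33 of them of single levels, the rest of balances), 1 sample lay so far from the others that its gap, as a share of the range of the group, passed Dixon's critical value for an outlier. About 1 in 20 such groups is expected by chance. In SNS, Gabra3 was 8.65 in replicate 4 and 8.8 to 8.82 in the others (gap over range 0.837). In BNS, Gabra4 was 8.99 in replicate 4 and 9.17 to 9.18 in the others (0.982). In BYP, Gabrb1 was 12.8 in replicate 3 and 13.2 in the others (0.85).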

How the results depend on the processing

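Gabrb1 kept its direction against SNS under all 26 alternatives fitted with limma in each of the 4 comparisons. Its log2 difference was never under 0.75 (BNS) or over 2.26 (BYA). Its call is read here only in alternatives that held 2 or more SNS samples for it, and it held in each of them. Leaving out SNS replicates 3 and 4, singly or together, left its difference unchanged where their spots were already left out. The methods' test is not among the 26, and with adjustment it called 0 members between BYA and SNS, so Gabrb1 lost its call there. Between BYP and SNS the count of called members fell from 2 to 1 with median or 75th percentile scaling, array as a random block, the samples compared alone, either dye alone, or SNS replicates 3 and 4 left out. With 75th percentile scaling Gabra3 was 0.31 there. With these 2 scalings the median of all genes lay between -0.24 and 0.33 over the comparisons. With slide as a random block (estimated correlation -0.13) 3 members were called between BNS and SNS (Gabra3, Gabrb1 and Gabrg1), 3 in any difference and 1 between BYP and BYS (Gabra3, adjusted p = 0.049). Slide goes with condition, so this block cannot be told apart from it. A negative correlation narrows the errors of these differences, so no conclusion is drawn from the added calls. Between BYP and BYS, median scaling also called 1 (Gabrb2, 0.91, adjusted p = 0.046, a dim probe). The methods' test without adjustment or size cut-off passed 1 there, 2 between BYS and BNS and 2 between BYP and BNS, with no share of all genes given.

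With outlier spots kept and SNS replicates 1 and 2 left out, 2 members were called against SNS in BNS, BYS and BYA and 2 in any difference, Gabra2 stood at 0.42 in BNS, and balances apart numbered 4 in BNS and 5 in BYS, BYA and BYP. Without SNS replicates 3 and 4 instead, 2 were called in BNS and in any difference, and 2 balances were apart in BNS and BYS. Each of these 2 settings held 2 SNS samples of 1 array. Their shares of all genes are not given here, so the counts cannot be set against a background. Gabra2, for which the SNS arrays stood apart, is in every balance but Gabrb2 minus Gabrb1. Cy3 samples alone called 0 members in any difference. Leaving out 1 sample gave 1 to 2 calls between BNS and SNS (2 without BNS replicate 2), between BYP and SNS (1 without SNS replicate 1, 2 or 3 or BYP replicate 1, 2 or 4), and in any difference (2 without BYA replicate 3).

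Balances apart numbered 1 in each comparison with SNS, 2 in BYP minus BNS, 1 in BYA minus BYS and BYP minus BYS, and 0 elsewhere. For BNS against SNS and BYP against BNS they became 0, and for BYP against BYA 1, with median and with 75th percentile scaling. Processed signals gave 2 in BYA and in BYP against SNS and 0 between BYP and BNS. Loess gave 2 between BYA and SNS. Without a dye term, 1 remained between BYP and BNS and 0 between BYA and BYS. With probes well above background in all samples Gabrb2 dropped out, which left 0 in each comparison with SNS and 1 between BYP and BNS. Leaving out 1 sample gave 0 to 2 between BYS and BNS (2 without BNS replicate 4, 1 without BYS replicate 2), 0 to 1 for BYA against BNS (1 without BNS replicate 4 or BYA replicate 1), 0 to 1 for BYP against BYA (1 without BYA replicate 1), and 1 to 2 in BYA (2 without BYA replicate 3 or SNS replicate 1) and in BYP against SNS (2 without SNS replicate 1).

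Same-numbered samples did not pair (mean correlation 0.0031, from -0.24 to 0.28). A replicate block, in which the replicate number takes up the dye, gave 2 calls between BYP and SNS, 1 in each other comparison with SNS and 0 elsewhere, and changed no call of a member. Signal over background limits Gabrb2, and 2 to 4 samples per group limit every interval.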
